A study of Mus musculus with 19 samples.

Results

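The transcription factor Trp63 (p63) and 7 genes of the junctions of basal epithelium were read in mouse prostate, in renal grafts of induced epithelial cells and in fibroblasts. The genes were chosen by name. They are Trp63, the integrin chains Itga6 and Itgb4, the laminin chains Lama3 and Lamb3, the linker protein Dst and the desmosomal cadherins Dsc3 and Dsg3. All 8 were found in both deposited expression tables, out of 23284 genes in each.

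The renal grafts came from induced mouse epithelial cells, made by exposing C57BL/6 fibroblasts to reprogramming factors in basal epithelial medium, which were combined with rat urogenital mesenchyme and grown for 6 weeks under the kidney capsule of male nude mice given testosterone. The grafts therefore also held rat stroma and host tissue. The values below are for mouse genes, but no step that sets rat reads apart is described, so rat RNA may be part of them. The 6 prostate samples were from C57BL/6 mice with a labelled duration of 6 weeks. The 6 samples of mouse embryonic fibroblasts (MEFs) came from C57BL/6 embryos at E13.5 with the allele label Nkx3-1tm2(LacZ)Mms /+. The study's methods describe such cultures as made from limbs, pooled over littermates and depleted of blood, endothelial and epithelial cells by sorting. Of the grafts, 5 share the first table with prostate and MEFs, and the study's sample list names grafts FS002 to FS008 as carrying further lentiviral factors, among them Nkx3.1 and Foxa1. Grafts FS022 and FS023 are in the second table, which was normalised separately. The labels do not tell grafts with these factors from grafts without, so FS022 and FS023 entered no test and are given as single values. Nothing in the labels says whether samples of a group came from separate animals or cultures, so the p-values measure the spread between these samples, which may be technical.

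Basal cells line the outer edge of the prostate epithelium and rest on the basement membrane. Trp63 marks these cells and is needed for stratified and glandular epithelia to form. Hemidesmosomes fasten a basal cell to the laminin of the membrane through an integrin pair whose cytoplasmic side is tied to keratin, while desmosomes join neighbouring cells through cadherins of the Dsc and Dsg families.

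Values are normalised expression on a log2 scale as deposited, and a difference of 1 is a 2-fold change. The reads counted on genes were estimated at 17371421 to 23446519 in the 5 grafts of the first table, 16767287 to 22512387 in prostate and 20418159 to 26152338 in MEFs, but only 6629663 in FS022 and 9662056 in FS023. At these depths 3 reads correspond to values from 1.68 to 2.34 for samples of the first table, to 3.12 for FS022 and to 2.70 for FS023. These floors cover counting error only, and a log2 fold change against a group near its floor is a fitted value and no bound. Epithelial markers (Cdh1, Epcam, Cldn7, Esrp1) had a summed level of 13.78 to 14.88 in grafts, 14.33 to 14.58 in prostate and 3.67 to 5.80 in MEFs. Kidney markers (Kap, Umod, Slc34a1, Lrp2, Aqp2) had a summed level of 10.31 to 17.35 in grafts and 3.48 to 6.73 in prostate, and were highest in FS002, FS005 and FS008. The prostate sample FS009 had the kidney transcript Kap at 6.12, with the other 5 prostate samples at or below 0.37. The 6 MEF samples formed 3 close pairs (FS017 with FS018, FS015 with FS020, FS016 with FS019). A gene passed when the limma test gave a Benjamini-Hochberg adjusted p under 0.05 and a log2 fold change of at least 1 in size.

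Across the 3 comparisons, most of the genes were higher in prostate and grafts than in fibroblasts. Between grafts and prostate, Dsg3 had the largest difference, and Dsc3, Lamb3 and Itgb4 also passed. In prostate against MEFs, 5 of the 7 genes that could be tested were higher and 1 was lower, beside 27.8% of all 14560 genes that were higher and 20.5% that were lower. Their groups did not overlap for 6 genes, beside 66.7% of all genes, so that the lack of overlap alone did not set them apart. In the 5 grafts against MEFs, 6 of 8 genes were higher and 1 was lower, beside 29.9% and 12.0% of all 16121 genes, and the groups did not overlap for 7 genes, beside 47.3%. In grafts against prostate, 4 of 8 were higher and none was lower, beside 23.0% and 10.3% of all 16353 genes, and the groups did not overlap for 2 genes, beside 37.2%. The median log2 fold change of the tested genes was 3.76, 5.26 and 1.03 in these comparisons, beside 0.17, 0.26 and 0.11 over all genes. The 3 comparisons share samples and are not independent of each other.

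**Figure D1:**
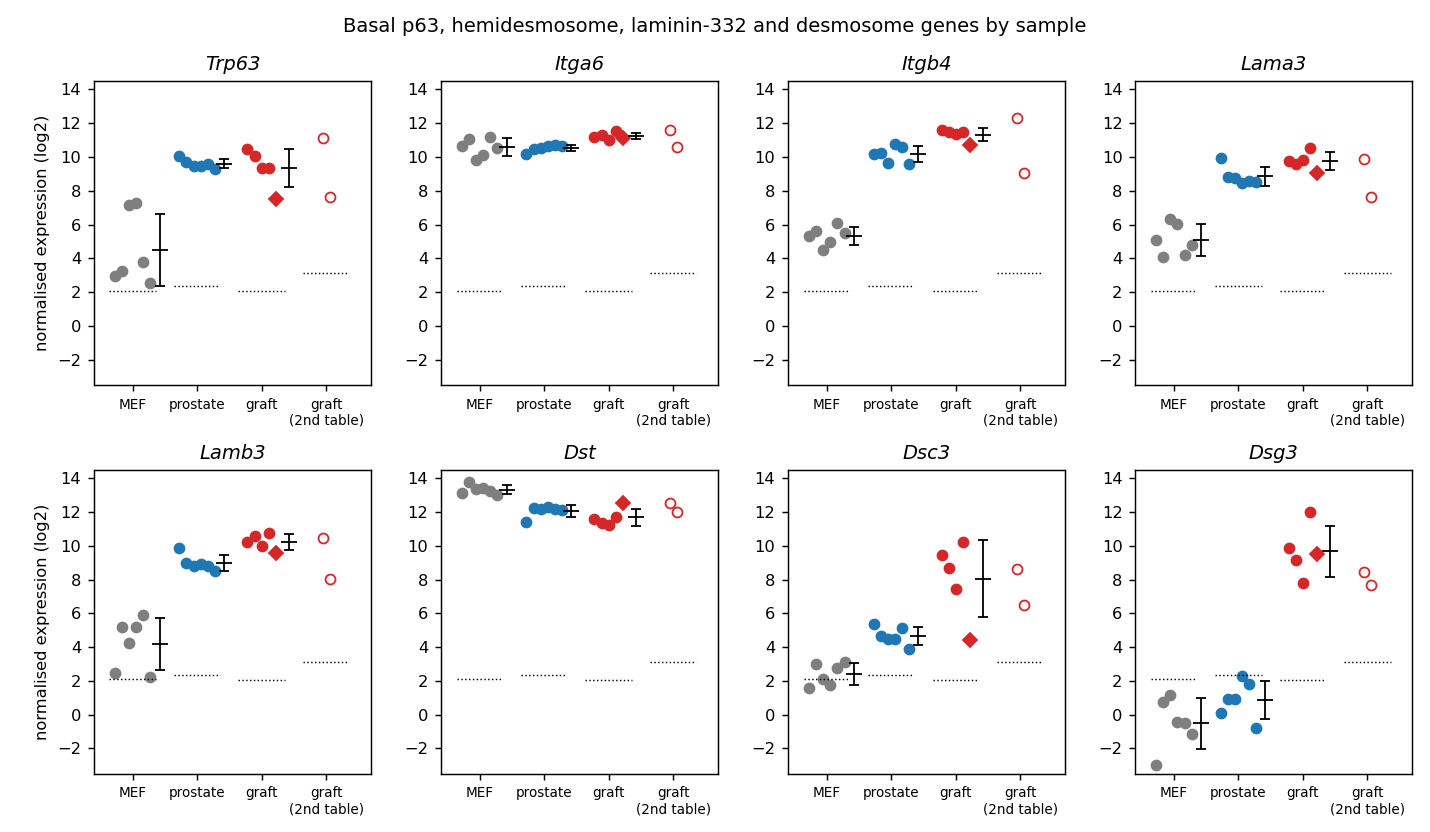
Normalised expression (log2) of the 8 genes in each sample, by group. Filled points are samples of the first table, open points are grafts FS022 and FS023 of the second, the diamond is graft FS008, bars are mean and SD, and dotted lines are the highest value that 3 reads take in a group. Dsg3 lay between 7.81 and 11.98 in the 5 grafts and at or below 2.29 in every prostate and MEF sample.

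Trp63 (ENSMUSG00000022510.8, chromosome 16, 25683849 to 25892188 on mm9) was present in grafts and prostate at levels that the test did not tell apart. Its values were 10.45, 10.09, 9.35, 9.34 and 7.54 in the grafts, taken in the order FS002, FS003, FS005, FS007, FS008, and 9.31, 9.54 and 10.05 as the lowest, median and highest of the 6 prostate samples. The grafts spread on both sides of prostate, with 2 grafts above the highest prostate sample and FS008 below the lowest. The grafts averaged 9.35 ± 1.12 (SD, n = 5) and prostate 9.60 ± 0.26 (SD, n = 6). The difference of -0.25 (SE 0.42, 95% interval -1.17 to 0.67) did not pass, with a limma adjusted p of 0.630. Without FS008 it was 0.20 (limma adjusted p = 0.469). In bulk samples, fewer cells of a type and less RNA per cell cannot be told apart.

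In MEFs, Trp63 fell into separate levels. Samples FS017 and FS018, which form a close pair, had 7.14 and 7.26 (about 161 and 164 reads), while the other 4 MEF samples had 2.54 to 3.78 (5 to 16 reads). Prostate was higher than MEFs by 5.11 on the log2 scale (SE 0.79, limma adjusted p = 4.65e-05), and grafts by 4.86 (SE 0.96, limma adjusted p = 0.00103). Without FS017 and FS018, these differences were 6.46 and 6.21, which is over 1.5 times as large on the linear scale, and both still passed. The epithelial markers were no higher in that pair than in the other MEF samples, with a summed level of 4.49 and 4.47 in FS017 and FS018 and 3.67 to 5.80 in the other 4. The basal keratins had a summed level of 4.05 and 3.43 in the pair.

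Set against Cdh1 (E-cadherin, made by basal and luminal cells alike) in the same sample, Trp63 was again not distinguishable between grafts and prostate. The log2 value of Trp63 less that of Cdh1 was -2.61, -3.49, -3.51, -4.58 and -5.49 in FS002, FS003, FS005, FS007 and FS008. In prostate it ran from -3.71 to -2.96. The means were -3.94 ± 1.11 (SD, n = 5) and -3.36 ± 0.31 (SD, n = 6), a difference of -0.58 with a 2-sided exact permutation p of 0.290. With Epcam as the reference the difference was 0.25 (exact permutation p = 0.589), so its direction depends on the reference gene. Without the 3 grafts with the most Kap, which leaves 2 grafts, the difference from Cdh1 was -0.68. No p-value is drawn on here, because so few samples allow too few arrangements for the exact test to fall under 0.05. The part of host kidney in the graft values of Cdh1 and Epcam was not tested. Graft FS022 had the highest value of all grafts, -1.48, and FS023 had -3.41, each taken within its own sample.

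The integrin chains moved unequally. Itgb4 (ENSMUSG00000020758.9, chromosome 11, 115836023 to 115869726), the integrin beta chain of hemidesmosomes, stood at 11.63, 11.47, 11.39, 11.47 and 10.69 in the grafts, taken in the order FS002, FS003, FS005, FS007, FS008. Prostate ranged from 9.60 to 10.76 with a median of 10.21, and MEFs from 4.51 to 6.08 with a median of 5.42. Thus 4 grafts lay above every prostate sample, and FS008 lay just under the highest of them. The grafts averaged 11.33 ± 0.37 (SD, n = 5), prostate 10.17 ± 0.47 (SD, n = 6) and MEFs 5.33 ± 0.55 (SD, n = 6). Itgb4 was 2.23-fold higher in grafts than in prostate (log2 1.16, SE 0.24, limma adjusted p = 0.00165), and 28.7-fold and 63.9-fold higher in prostate and grafts than in MEFs (limma adjusted p = 2.53e-09 and 4.70e-08).

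Itga6 (ENSMUSG00000027111.8, chromosome 2, 71583673 to 71696473), the alpha chain that pairs with Itgb4 but also with Itgb1, did not follow it into the fibroblast contrast. MEFs expressed it at 9.85 to 11.19 with a median of 10.60, and prostate at 10.17 to 10.69 with the same median. The groups differed by -0.04 (SE 0.21, 95% interval -0.50 to 0.41, limma adjusted p = 0.849), and the sign of this difference turned to 0.03 without prostate sample FS009. The grafts had 11.21, 11.33, 10.99, 11.52 and 11.15, each above every prostate sample. Itga6 was higher in grafts than in prostate by 0.71 (SE 0.12, limma adjusted p = 0.000480) and than in MEFs by 0.66 (SE 0.23, limma adjusted p = 0.0247), both under the size needed to pass. Against MEFs, this adjusted p was 0.0803 without FS017 and FS018. Graft FS022 had Itga6 at 11.62 and Itgb4 at 12.32, and FS023 had 10.58 and 9.06.

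Itgb4 and Itga6 are also made by endothelium and Schwann cells. The endothelial markers (Pecam1, Cdh5, Kdr, Tek, Emcn) had a summed level of 10.32 to 11.91 in grafts and 10.17 to 10.63 in prostate. Of these, 2 of 5, Cdh5 and Kdr, were higher in grafts, beside 23.0% of all genes, Kdr no longer passing without FS008 (0.98). The Schwann cell markers Sox10 and Mbp had a summed level of 9.44 to 13.20 in grafts and 10.07 to 10.19 in prostate, and Mbp was higher in grafts. None of these markers was at or below 3 reads in every sample of either group, and their part in the integrin values was not tested. Without the 3 grafts with the most Kap, Itgb4 differed from prostate by 1.30 and Itga6 by 0.89 (limma adjusted p = 0.00784 and 0.00167).

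Lama3 and Lamb3 encode the alpha and beta chains of the laminin under hemidesmosomes. Lamb3 (ENSMUSG00000026639.11, chromosome 1, 195128151 to 195170072) stood at 10.21, 10.55, 9.96, 10.75 and 9.55 in the grafts, taken in the order FS002, FS003, FS005, FS007, FS008. Prostate sample FS009 had 9.86, and the other 5 prostate samples had 8.53 to 8.96. All grafts were thus above 5 of 6 prostate samples, and FS008 was below FS009. MEFs had 2.20 to 5.88 with a median of 4.70 (4 to 76 reads). Lamb3 was 2.33-fold higher in grafts than in prostate (log2 1.22, SE 0.26, limma adjusted p = 0.00194), 27.8-fold higher in prostate than in MEFs and 64.9-fold higher in grafts than in MEFs (limma adjusted p = 5.53e-06 and 1.43e-05). When all 3 groups shared 1 fit, the graft excess over prostate kept its size but had a limma adjusted p of 0.0690.

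Lama3 (ENSMUSG00000024421.9, chromosome 18, 12492533 to 12741522) had the same order of groups. Its values were 9.75, 9.58, 9.83, 10.54 and 9.04 in the grafts, taken in the order FS002, FS003, FS005, FS007, FS008. It was at 9.94 in prostate sample FS009 and at 8.47 to 8.80 in the other 5 prostate samples. FS009 again lay among the grafts, and MEFs were far below, at 4.09 to 6.36 with a median of 4.95. Lama3 was higher than in MEFs by 3.76 in prostate and by 4.65 in grafts on the log2 scale (limma adjusted p = 1.48e-06 and 5.18e-06). The graft excess over prostate was 0.90 (SE 0.30, limma adjusted p = 0.0250), under the size needed to pass. Without FS009 it was 1.11 and without the 3 grafts with the most Kap it was 1.21, and both passed (limma adjusted p = 0.00272 and 0.0353). Without FS008 it was 1.07, but FS008 had been singled out for its low Krt5, so no test without it is drawn on. FS022 had Lama3 at 9.90 and Lamb3 at 10.47, and FS023 had 7.63 and 8.01.

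Laminin chains of other basement membranes did not share this pattern. Of 8 (Lama1, Lama2, Lama4, Lama5, Lamb1, Lamb2, Lamc1, Lamc3), only Lamc3 was higher in prostate than in MEFs, and Lama4, Lamb1, Lamb2 and Lamc1 were lower, beside 27.8% and 20.5% of all genes, with a median log2 fold change of -0.78. Between grafts and prostate none was higher by limma, and Lama2 and Lamc3 were lower, beside 23.0% and 10.3% of all genes, by -2.05 and -1.96 (limma adjusted p = 0.00344 and 0.00227).

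**Figure D2:**
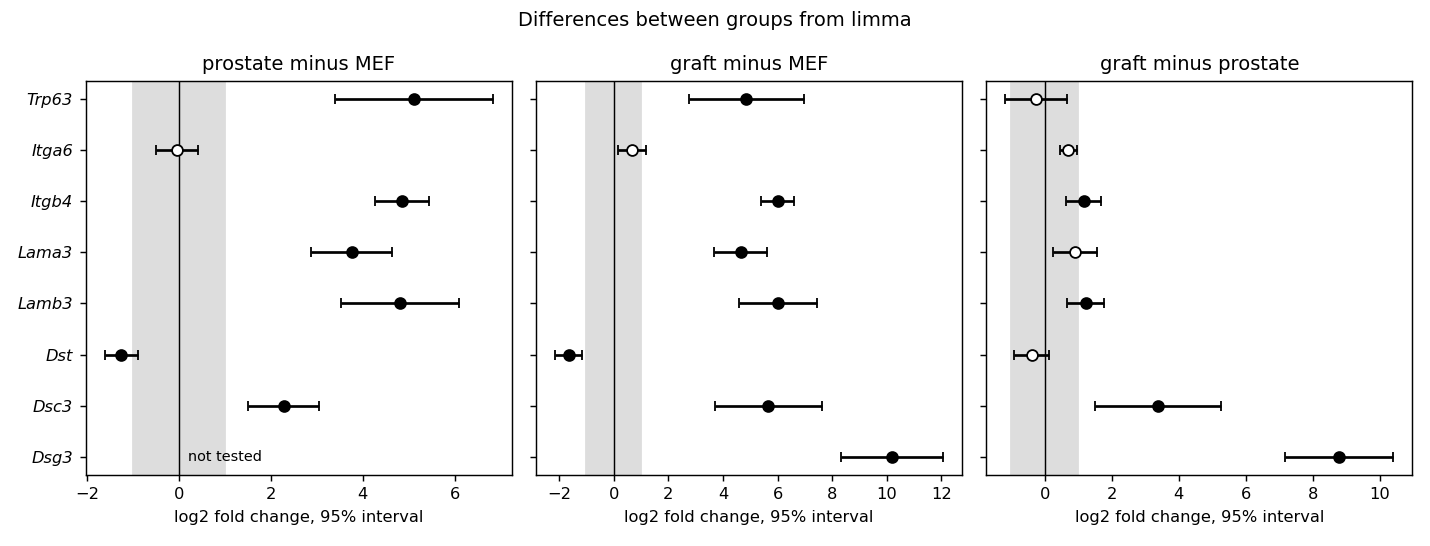
Log2 fold change with its 95% interval from limma for the 8 genes in the 3 comparisons, with filled points for genes that passed and grey for changes under 1 in size. Dst was the gene that was lower in prostate (-1.26) and in grafts (-1.65) than in MEFs, and Dsg3 could not be tested between prostate and MEFs.

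The RefSeq promoter table (GRCm38.p6, 250 bases before to 50 after a start) held entries for 2 of the 8 genes, Lamb3 and Dst. They are shown because these genes moved in opposite directions between prostate and MEFs. Capitals mark matches on either strand to CNNG, any 6 bases and CNNG again, a loose core of the element that p63 and its relatives bind. The windows are on chromosome 1, plus strand, at chr1:193301744-193302043 for Lamb3, and at chr1:34011345-34011644 and chr1:34160010-34160309 for 2 of the starts of Dst. A second Lamb3 window in the table (chr1:193301993-193302292), which overlaps the first, is not printed.
Lamb3 start: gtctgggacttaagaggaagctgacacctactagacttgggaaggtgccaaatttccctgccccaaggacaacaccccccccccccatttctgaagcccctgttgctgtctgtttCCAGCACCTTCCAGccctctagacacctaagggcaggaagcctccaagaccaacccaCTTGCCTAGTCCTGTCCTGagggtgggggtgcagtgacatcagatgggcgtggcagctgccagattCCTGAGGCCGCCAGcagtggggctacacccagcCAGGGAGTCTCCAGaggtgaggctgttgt
Dst start 1: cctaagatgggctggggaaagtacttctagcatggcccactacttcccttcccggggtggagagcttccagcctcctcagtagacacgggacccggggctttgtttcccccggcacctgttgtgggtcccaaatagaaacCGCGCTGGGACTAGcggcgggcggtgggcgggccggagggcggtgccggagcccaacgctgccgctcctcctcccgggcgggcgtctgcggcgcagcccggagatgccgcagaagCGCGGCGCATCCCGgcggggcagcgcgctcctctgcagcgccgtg
Dst start 2: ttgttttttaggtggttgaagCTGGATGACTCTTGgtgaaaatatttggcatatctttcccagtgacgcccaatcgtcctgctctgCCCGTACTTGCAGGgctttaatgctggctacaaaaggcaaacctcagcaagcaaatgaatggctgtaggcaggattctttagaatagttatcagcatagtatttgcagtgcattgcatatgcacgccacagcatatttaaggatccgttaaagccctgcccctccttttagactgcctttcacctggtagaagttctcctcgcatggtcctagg
The printed Lamb3 window held 5 matches, 2 of which overlap, the other Lamb3 window held 3, and each Dst window held 2. Such a match was present in 70.2% of all 32841 promoters searched, so that its presence does not set these windows apart. Dst start 1 held 4 GC boxes (GGGCGG) and had a GC content of 70.3%, against 46.0% at start 2, 59.3% at Lamb3 and a median of 52.7% over all promoters. A GC box was present in 35.7% of all promoters and was not found in the other printed windows. No AP-1 motif (TGANTCA) or TATA box (TATAAA) was found in the printed windows, while 7.81% and 13.6% of all promoters held them. These are matches of letters and say nothing of binding.

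Dst (ENSMUSG00000026131.9, chromosome 1, 33965125 to 34365495 on mm9) encodes dystonin, whose epithelial form links the hemidesmosome to keratin and whose other forms serve muscle, nerve and the cytoskeleton of many cells. It was the gene with its highest level in fibroblasts. MEFs had 13.03 to 13.78 with a median of 13.30, and prostate had 11.38 to 12.32 with a median of 12.18. The grafts had 11.56, 11.35, 11.23, 11.68 and 12.55 in FS002, FS003, FS005, FS007 and FS008, all below every MEF sample. Dst was lower than in MEFs in prostate (log2 -1.26, SE 0.16, limma adjusted p = 1.02e-05) and in grafts (-1.65, SE 0.22, limma adjusted p = 7.41e-05). After quantile normalisation the prostate difference was -0.97, under the size needed to pass. Grafts and prostate differed by -0.39 (SE 0.24, 95% interval -0.92 to 0.13, limma adjusted p = 0.178), and by -0.61 without FS008, both under the size needed to pass. The values are per gene and do not separate the forms. FS022 and FS023 had 12.52 and 11.97.

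The hemidesmosome partners went in both directions against fibroblasts. Of 7 partners (Col17a1, Plec, Cd151, Itga3, Itgb1, Dag1, Fermt1), 2 were higher in prostate than in MEFs, 3 were lower and 2 did not pass, beside 27.8% and 20.5% of all genes, with a median log2 fold change of 0.28. The epithelial members Fermt1 (8.53) and Col17a1 (5.65), the collagen of the hemidesmosome, were higher. The members that fibroblasts also use, Itgb1 (-2.96), Plec (-2.59), the plectin that shares its role with dystonin, and Dag1 (-1.71), were lower. The same 5 passed in the same directions in grafts against MEFs, beside 29.9% and 12.0% of all genes. Between grafts and prostate none of the 7 passed in either direction by limma, beside 23.0% and 10.3% of all genes, and the median was 0.16. Plec (0.52) and Dag1 (0.68) had limma adjusted p of 0.00109 and 0.00203, with a change under the size needed. The count of none includes Col17a1, which stood at 5.99 in FS008, at 11.87, 11.14, 10.93 and 11.17 in the other 4 grafts and at 8.83 to 9.75 in prostate. Its difference from prostate was 1.10 with FS008 (limma adjusted p = 0.299) and 2.16 without it. Since FS008 had been singled out for its low Krt5, another basal gene, no test of Col17a1 without FS008 is drawn on.

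The desmosomal cadherins gave the widest difference between grafts and prostate. Dsg3 (ENSMUSG00000056632.6, chromosome 18, 20668805 to 20705360), the desmoglein of the lower layers of stratified epithelium, stood at 9.88, 9.15, 7.81, 11.98 and 9.51 in the grafts, taken in the order FS002, FS003, FS005, FS007, FS008, from 315 to 4873 reads. The 6 prostate samples held 0, 1, 1, 4, 2 and 0 reads, so that 5 of 6 lay at or below 3 reads, and all 6 MEF samples did too. On the deposited log2 scale the graft with the least Dsg3, FS005, was at least 5.47 above prostate (44.2-fold) and at least 5.73 above MEFs, taking as the level of each group the highest value that 3 reads take in it (2.34 and 2.08), which no sample of the group exceeded. The limma test gave an adjusted p of 3.70e-06 against prostate and 2.16e-06 against MEFs. Its fitted log2 changes, 8.79 and 10.19, rest on values under the floor and are no bounds. Prostate and MEFs were both too low to be tested against each other.

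Dsc3 (ENSMUSG00000059898.7, chromosome 18, 20119431 to 20160598), the desmocollin of basal layers, stood at 9.43, 8.69, 7.46, 10.25 and 4.40 in the grafts, taken in the order FS002, FS003, FS005, FS007, FS008. Prostate ranged from 3.90 to 5.35 with a median of 4.57 (12 to 33 reads), and MEFs from 1.60 to 3.12 (2 to 8 reads). Of the grafts, 4 lay above every prostate sample, whereas FS008, with 22 reads, lay within the prostate range. Dsc3 was 10.4-fold higher in grafts than in prostate (log2 3.38, SE 0.86, limma adjusted p = 0.00589) and 4.85-fold higher in prostate than in MEFs (log2 2.28, SE 0.36, limma adjusted p = 5.48e-05), the latter with 2 of 6 MEF samples at or under the floor. Without FS008 the excess over prostate was 4.29 on the log2 scale. In the second table FS022 had Dsc3 at 8.63 and Dsg3 at 8.46, and FS023 had 6.50 and 7.67, from 53 to 166 reads.

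Dsc3 and Dsg3 lie in 1 cluster on chromosome 18, in the order Dsc3, Dsc2, Dsc1, Dsg1c, Dsg1a, Dsg1b, Dsg4, Dsg3 and Dsg2, with gaps of 11.2 to 133 kb. The genes of the cluster did not move as a block. Between grafts and prostate, Dsc2 was higher by 1.51 (limma adjusted p = 0.00157) and Dsg1b and Dsg1a by 4.74 and 3.64 (limma adjusted p = 0.00242 and 0.0321), the last 2 of these being fitted from prostate means below the floor. Dsg2, the desmoglein of simple epithelia at the end of the cluster next to Dsg3, differed by 0.31 (limma adjusted p = 0.122). Dsc1, a desmocollin of the upper layers of skin, was lower in grafts by -4.57 (SE 1.26, limma adjusted p = 0.00930). Without FS008 it was -3.31 (limma adjusted p = 0.00580). Dsc1 stood at 6.96 to 8.48 in prostate, and at 5.40, 7.13, 2.30, 3.02 and -1.85 in FS002, FS003, FS005, FS007 and FS008. Dsg1c and Dsg4 were too low to be tested.

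**Figure D3:**
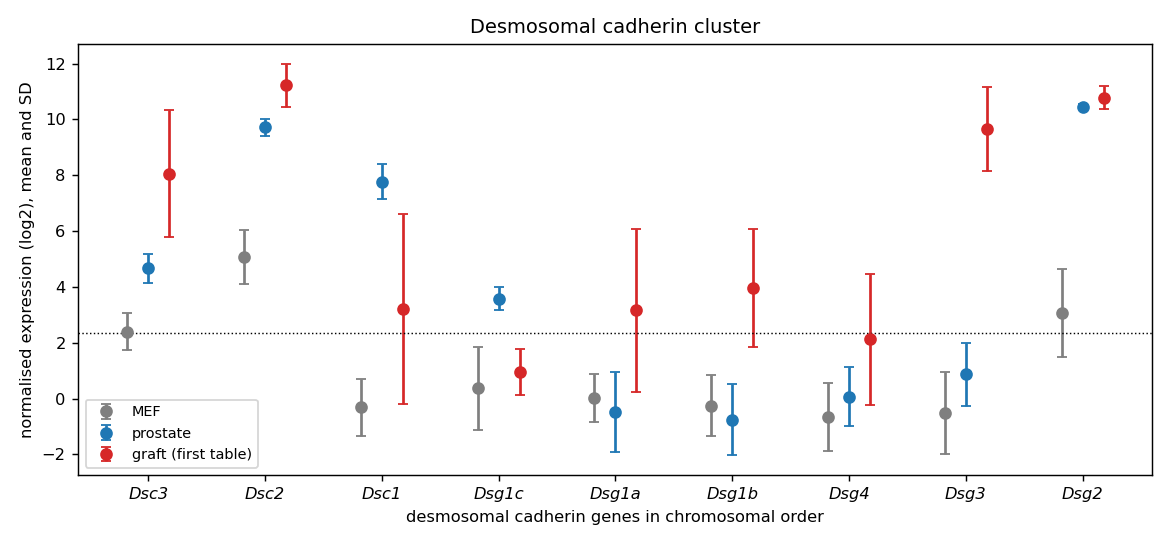
Mean and SD of normalised expression (log2) of the 9 desmosomal cadherin genes in chromosomal order, in MEFs (n = 6), prostate (n = 6) and the 5 grafts of the first table. The dotted line is the highest value that 3 reads take. Dsc3 and Dsg3 were higher in grafts than in prostate, Dsc1 was lower in grafts, and Dsg2 had means of 10.77 and 10.46.

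Among the other desmosome genes, the plaque protein Pkp1 was higher in grafts than in prostate by 2.96 (limma adjusted p = 0.000158). The plaque proteins Dsp, Jup, Pkp2 and Pkp3 and the p63 target Perp did not pass, with changes from -0.23 to 0.57. In all, 4 of the 11 desmosome partners tested were higher in grafts than in prostate, 1 was lower and 6 did not pass, beside 23.0% and 10.3% of all genes, with a median of 0.43. Against MEFs, 10 of 11 were higher in grafts and 6 of 9 in prostate, beside 29.9% and 27.8% of all genes, with none lower, led by Dsg2 (7.70) in grafts and Dsc1 (8.09) in prostate.

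Stratified squamous markers were also higher in grafts as a group of samples, but did not all follow Dsg3 from graft to graft. All 7 (Krt1, Krt10, Krt13, Krt6a, Ivl, Lor, Sprr1b) passed as higher in grafts than in prostate, beside 23.0% of all genes, from 2.84 for Krt10 to 9.08 for Krt6a, with a summed level of 10.74 to 15.08 in grafts and 6.79 to 7.78 in prostate. FS008, with Dsg3 at 9.51, had Krt1, Krt10, Krt13, Ivl, Lor and Sprr1b at 3.63, 6.22, 4.02, 1.59, 3.63 and -0.46, none above the highest prostate sample. Krt6a stood at 12.41, 11.32, 10.55, 13.96 and 10.64 in FS002, FS003, FS005, FS007 and FS008, against at most 6.29 in prostate. Like Dsg3, Krt6a was highest in FS007 and lowest in FS005. Krt13 had the order of Dsg3 in FS007, FS002, FS003 and FS005 (14.18, 13.53, 13.46 and 10.60), but not in FS008. FS007, with the most Dsc3 and Dsg3, had the most Krt6a and Krt13 (13.96 and 14.18), but Krt10 at 6.31, within the prostate range of 6.09 to 6.49. Ivl was at or below 3 reads in every prostate sample. Of the basal keratins, Krt17 was higher in grafts, and Krt5, Krt14 and Krt15 did not pass (0.16, 1.01 and -0.74). Without FS008, which had been singled out for its low Krt5, these 3 differences were 1.65, 2.10 and 0.92. Since that choice fixed the direction for Krt5, no test of these keratins without FS008 is drawn on. All 5 kidney markers were higher in grafts and all 4 smooth muscle markers were lower, beside 23.0% and 10.3% of all genes. The part of these cells in the values of Dsc3 and Dsg3 was not tested. In FS003 and FS007, the 2 grafts left without the 3 with the most Kap, Dsc3 and Dsg3 were higher than in prostate by 4.80 and 9.69 (limma adjusted p = 0.000157 and 0.000152).

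The relatives, partners and known targets of p63 numbered 14, of which 6 were higher in grafts than in prostate, 1 was lower and 7 did not pass, beside 23.0% and 10.3% of all genes, with a median of 0.81. Tfap2c differed by -2.61 (limma adjusted p = 0.0535) and did not pass. Without FS008 its difference was -1.42, with no test drawn on, since FS008 had been singled out for its low Krt5. The higher genes were Grhl3 (6.04), a factor of the epidermal barrier, Cdkn1a (3.52), the cell cycle inhibitor, Bnc1 (3.39), Sfn (2.59), the stratifin of differentiating keratinocytes, the family member Trp73 (2.49) and Igfbp3 (1.60). Grhl3 and Bnc1 were at or below 3 reads in 4 and 2 of 6 prostate samples, so their sizes are no bounds. Cdkn1a was uneven in prostate, at 10.30 and 10.23 in FS012 and FS013 and 6.69 to 7.61 in the others, against 10.79 to 13.08 in grafts. Satb1, a chromatin organiser, was lower by -2.98 (limma adjusted p = 0.000151). Jag2, a Notch ligand, differed by -0.61 (limma adjusted p = 0.190) and did not pass. In prostate against MEFs, 5 of 12 tested were higher, beside 27.8% of all genes, led by Tfap2c (7.77) and Zfp750 (6.57). A further 5 were lower, beside 20.5% of all genes, among them Cdkn1a (-4.43) and Trp53 (-1.65). Of the other integrin chains, Itgb6, Itgb8 and Itga2 were higher in grafts than in prostate, by 3.43, 2.03 and 1.90, beside 23.0% of all genes. Itga5, Itgav and Itgb5 did not pass.

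Graft FS008 differed from the other 4 grafts in a way that parted these genes. It had been singled out for its low Krt5, at 5.13 against 11.67 to 13.73, so that value is no result. The other keratins of basal cells were also lower, with Krt14 at 5.73 against 9.73 to 12.11 and Krt15 at 4.26 against 10.59 to 14.10. Trp63, Itgb4, Lama3, Lamb3 and Dsc3 were also the lowest of the 5 grafts in FS008. They were below the median of the other 4 by -2.18, -0.78, -0.75, -0.83 and -4.66. Itga6 (-0.12) and Dsg3 (-0.01) lay within the range of the other grafts, and Dst was the highest of the 5 (1.09 above the median). Col17a1 was lower by a similar amount (-5.17) and Fermt1 by less (-1.87), while Plec (0.05) and Dag1 (-0.11) lay within the others' range. The squamous keratins parted too, with Krt13 at 4.02 against 10.60 to 14.18 and Krt6a, at 10.64, within the range of the others. Of the luminal markers, Krt18 (10.91 against 12.34 to 13.44), Krt19 (11.79 against 12.72 to 13.66) and Cd24a (12.42 against 12.99 to 13.77) were also the lowest in FS008, and Krt8 lay within the others' range. The epithelial marker Cdh1 was within their range (13.03) and Epcam was below it (11.03 against 12.40 to 13.32). FS008 also had the highest Slc34a1 (15.21) and Lrp2 (12.99), genes of the kidney tubule. In the study's supplement, FS007 and FS008 had more reads of the introduced SOX2, KLF4 and MYC than FS002, FS003 and FS005. Unlike those grafts, they had no reads from the untranslated ends of Nkx3.1 and Foxa1. FS008 is 1 sample, so these places are a description, and the part of kidney or of the introduced factors in them was not tested.

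**Figure D4:**
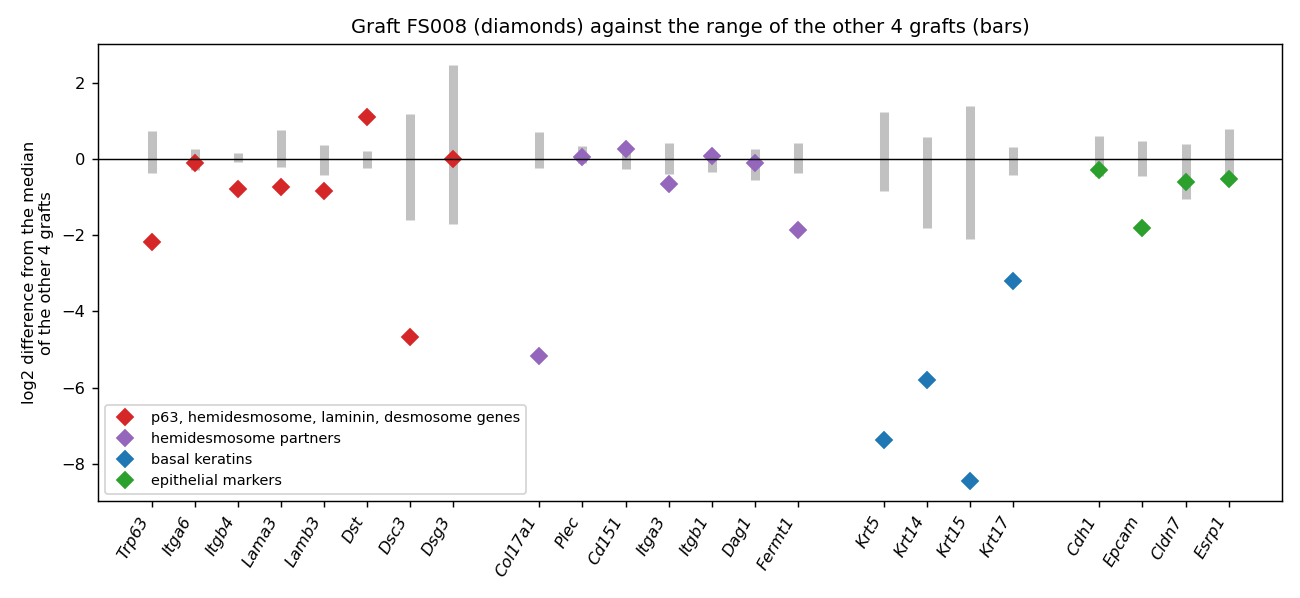
Difference of graft FS008 from the median of the other 4 grafts of the first table (diamonds, log2), with the range of those 4 as grey bars. FS008 had been singled out for its low Krt5. The basal keratins were lower by 3.20 to 8.44, Trp63 by 2.18 and Dsc3 by 4.66, whereas Itga6, Dsg3, Plec and Cdh1 lay inside the range of the others.

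The 3 genes most like each of the 8 across the 17 samples of the first table, by the root mean square difference of log2 values centred per gene over 16101 genes, included none of the other 7. A gene of the desmosome list was among them for Itgb4, which was nearest to the desmocollin Dsc2 (0.59), before Gimap5 and Esam (0.60 each). Trp63 was nearest to Sh2d4a (0.74), Aldh1a7 (0.77) and Gm7609 (0.89), beside a median of 2.74 over all genes. Lama3 was nearest to H2-K1 and Tspan15 (0.62 each) and Pde2a (0.63), and Lamb3 to Cbr2 (0.80), Hopx (0.85) and AA986860 (0.89). Dsc3 was nearest to B3galt2 (0.72), Bbox1 (0.88) and Arg1 (0.89), and Dsg3 to Nccrp1 (1.23), Gcnt3 (1.40) and Ern2 (1.47). The narrow ranges of Itga6 and Dst gave small differences, 0.23 for Itga6 with Laptm4b and 0.24 for Dst with Heatr5b. Among the 8 themselves, Itgb4 and Lamb3 were the closest pair (0.90), followed by Itga6 and Dst (1.02) and by Itgb4 and Lama3 (1.08). Dst and Dsg3 were the farthest apart (5.05).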

How the data were processed

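RNA-seq was made from 7 renal grafts, 6 prostate samples and 6 MEF samples. Per the submitters' processing notes, the tools were bcl2fastq 1.8.4, TopHat, Cufflinks and DESeq, with the mm9 build, and the study describes counts normalised with DESeq. The authors deposited log2 values, 1 per gene and sample, in 2 tables normalised separately. The transformation and the counter are not given in the sources used here. Between 11.5 and 15, every value corresponded to whole reads (within 0.05 reads) once divided by a factor for its sample, and that factor gave the estimated reads. Lower values carry added scatter, so read numbers are estimates and no count test was run, although a count test had been planned had the files held counts. The 2 tables share 23259 gene names. FS022 and FS023 lay a median of 0.10 and 0.12 below the common scale over 10188 genes and entered no test.

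Samples were grouped by the sample labels alone. Each pair of groups was tested in R 4.3.3 using limma 3.58.1, with an intensity trend in eBayes, on genes whose linear mean reached 10, and the 8 genes were read from that fit with p adjusted over all genes tested. Of the 8 genes, 7 passed this filter between prostate and MEFs and 8 in the other comparisons. On simulated data with 200 changed genes, 187, 167 and 169 were recovered in prostate against MEFs, grafts against MEFs and grafts against prostate, with 8, 5 and 8 false calls. The simulation used independent normal noise, the same spread per gene in both groups, and a fixed change above the size needed, in genes above the filter. It held no close pairs and no unequal spreads, so it gives no error rate for the real samples. A summed marker level is the log2 of the summed linear values. The difference of Trp63 and Cdh1 was tested with an exact 2-sided permutation test over samples. The 3 close MEF pairs still differed by more than sampling noise, with a chi-square per gene of 5.48 to 32.4. In other MEF pairs it was 305 to 471. The main tests kept every MEF sample as a separate value. The samples of a close pair may not be independent, so the p-values against MEFs may be too small. With the pairs averaged, 5778 genes passed in grafts against MEFs, in place of 6757. In prostate against MEFs, 7029 passed, in place of 7026.

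The genes, the lists and the tests were chosen with earlier results of these data known. The genes named are the 8, those of the lists (the largest changes that passed, and members a result turns on), and the 3 genes nearest in pattern to each of the 8. Some genes of the lists are not reported here and do not enter the lists' counts. Luminal, fibroblast, prostate secretion and skeletal muscle markers were also read. Luminal markers had 1 of 4 lower in grafts than in prostate, prostate secretion 5 of 5 lower, fibroblast none of 5 in either direction, and skeletal muscle 1 of 4 higher. Over all genes, 23.0% were higher in grafts than in prostate and 10.3% lower. Positions are from GENCODE M1 on mm9. Promoters are RefSeq sequences on GRCm38.p6, matched by symbol, and give no position on mm9. Permutation tests used scipy 1.17.1, tables pandas 2.3.3 and numpy 2.4.6, and plots matplotlib 3.10.9, under Python 3.11.15.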

Additional observations from a re-analysis of the deposited data

Results flagged for a closer look

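Of 24 groups of samples checked for a sample far from the others (8 genes in grafts, prostate and MEFs), 4 held such a sample, while chance alone would give about 1.20. The 8 genes were read in the same samples, so the checks are not independent and these 2 numbers do not measure an excess. Prostate sample FS009 was far above the other 5 in Lama3 (9.94) and Lamb3 (9.86), and far below them in Dst (11.38). The same sample held the kidney transcript Kap at 6.12. Graft FS008 was far below the other 4 grafts in Itgb4 (10.69).

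Grafts FS022 and FS023, by the study's numbers those without the further lentiviral factors, entered no comparison. They had desmosomal cadherins above every prostate and MEF sample, on a table of their own scale. Dsc3 was at 8.63 in FS022 and 6.50 in FS023, and Dsg3 at 8.46 and 7.67.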

How the results depend on the processing

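The number of the 8 genes that passed stayed within 1.5 times the reported 6, 7 and 4 under every alternative tried, which changed the filter, the scaling, the offset, the trend, the samples in the fit and the minimum fold change, and left out each graft in turn (7 of 8 against MEFs each time, 4 to 5 against prostate). Alternatives without FS009, without FS017 and FS018, without the 3 grafts with the most Kap and with averaged MEF pairs were added after the data were seen. Signs turned for 2 genes that had not passed. Itga6 in prostate against MEFs was 0.04 after quantile normalisation and 0.03 without FS009. Trp63 in grafts against prostate ran from -0.52 to 0.20 when a graft was left out, with 0.20 without FS008, and was 0.11 without the 3 grafts with the most Kap. The difference of Trp63 and Cdh1 was 0.25 with Epcam as the reference, and -0.91 to -0.19 when a graft was left out. The cause was not tested. Without a minimum fold change, 11772, 10573 and 9093 genes passed in prostate against MEFs, grafts against MEFs and grafts against prostate, in place of 7026, 6757 and 5440, since the rule is looser. Quantile normalisation moved the median of all genes from 0.26 to -0.20 in grafts against MEFs and from 0.11 to -0.15 in grafts against prostate, and with it the higher and lower calls from 4815 and 1942 to 2830 and 3827, and from 3757 and 1683 to 2445 and 3112. The median moved from 0.17 to -0.02 in prostate against MEFs. No paired analysis was possible because the labels carry no replicate numbers shared between groups. Depth limits Dsg3 in prostate and MEFs and Dsc3 in MEFs, which lie near 3 reads.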
